A study of Mus musculus with 10 samples.

Results

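The acetylcholine receptor of skeletal muscle and the machinery that gathers it under the nerve ending were followed through 10 genes. Chrna1, Chrnb1, Chrnd, Chrng and Chrne encode the α, β, δ, γ and ε subunits of the receptor, and Agrn, Lrp4, Musk, Dok7 and Rapsn encode agrin, its receptor Lrp4, the kinase MuSK, the adaptor Dok-7 and the scaffold protein rapsyn. The genes were taken by name and not by a measured value, and all 10 were among the 23388 genes listed in each of the 4 deposited tables.

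The muscle acetylcholine receptor is a ligand-gated cation channel. Its fetal form carries the γ subunit, and the ε subunit takes that place in innervated adult muscle. Agrin released by the motor nerve binds Lrp4 on the muscle surface, Lrp4 activates MuSK, Dok-7 binds the active kinase, and rapsyn holds the receptors in clusters. In culture, myoblasts switch on most of these genes while they fuse into myotubes, with no nerve present.

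RNA-seq was done on C2C12 cells, a mouse myoblast line that grows in 10% fetal bovine serum and differentiates in 2% horse serum. The study asked what Huwe1, an E3 ubiquitin ligase, and USP10, a deubiquitinase, do in muscle differentiation. Wild type cells, 1 library each at day 0 and day 6, were set against Huwe1 knockdown cells, which were infected as myoblasts with lentivirus carrying 1 of 2 shRNAs, 1 library for each shRNA and day. At day 8, 1 control library with a non-targeting RNA was set against 2 knockdown libraries with, by the labels, another pair of shRNAs, delivered to cells already in differentiation medium. Infected cells were selected with puromycin in both designs. The day 0 and day 6 controls are titled wild type, with no virus named. At these days, effects of the knockdown and of infection with selection cannot be told apart. The study's methods give a single pair of shRNAs, that of the day 8 labels, so which pair was used at day 0 and day 6 rests on the labels. The USP10 cells, 1 library, carried a USP10 cDNA under the EF1a promoter and were collected at day 6. The labels name no nerve cells in any group, and the sources used here do not say whether a line is 1 clone. The control at day 8 is labelled as non-targeting RNA, while the column of its table is headed as wild type.

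Values were FPKM, fragments per kilobase of transcript and per library size, so within a column the levels of different genes could be compared. Each table held 1 value for the control and 1 for the treated cells, and the 2 knockdown libraries were pooled into 1 value, so there were no replicate values, no error and no test. A gene was said to have risen or fallen where the log2 ratio of FPKM, with 0.01 FPKM added, reached 2-fold and the gene had at least 1 FPKM in 1 of the 2 columns. The USP10 table has a day 6 control column of its own, which differs from the one in the Huwe1 table. The difference between these 2 day 6 controls was the one measure of how far control columns differed, and which library the second was made from was not given. Because each table was normalized on its own, any comparison across tables is a description.

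Against the control of its own table, each targeted gene moved in the direction its label gives. Huwe1 was 38.3 FPKM in control and 15.2 in knockdown cells at day 0, 35.1 and 21.9 at day 6, and 55.4 and 33.0 at day 8. Usp10 was 10.3 FPKM in the control and 38.3 in the USP10 cells, and it was also 13.2 in control and 35.4 in Huwe1 knockdown cells at day 6. A higher Usp10 level than in the day 6 control was therefore not particular to the USP10 cells. In myoblasts Usp10 was 68.5 FPKM in control and 64.2 in knockdown, above its level in the USP10 cells. Depth, estimated from 2132 genes with 1 transcript, was 18200000 to 29900000 fragments in 4 single-library columns and 7800000 in the control of the USP10 table.

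Myotube markers, genes of the contractile apparatus and fusion, moved with the treatments. Of 10 listed, 9 fell at least 2-fold in Huwe1 knockdown at day 6, against 13.4% of all genes. At day 8 it was 10, against 10.0%, and in USP10 cells 7, against 10.0%. Des at day 6, and Acta1, Mylpf and Des with USP10, were lower by less than 2-fold. The summed level of the markers was 356 FPKM in control and 187 in knockdown myoblasts. Des carried most of both sums, at 345 and 173 FPKM. Of the 4 markers past the minimum in myoblasts, 0 fell, against 1.69% of all genes, and 1 rose, against 1.9%. The 1 was Tnnc2, at 0.257 and 1.33 FPKM, which passed through the knockdown column alone. The summed level was 9576 to 22229 in differentiated controls and 3807 to 5363 in differentiated treated cells. Mesenchymal markers summed to 125 to 511 FPKM in the 4 control columns, to 4518 in Huwe1 knockdown and 4130 in USP10 cells at day 6, and to 802 in knockdown at day 8. Dcn, which encodes the matrix proteoglycan decorin, carried most of the day 6 sums at 2987 and 3037 FPKM, while Thy1 was listed at 0 in 6 of the 8 columns. At day 8, Col3a1 carried most of the sum, at 710 FPKM in knockdown and 411 in control. Of 6 mesenchymal markers past the minimum there, 2 rose, against 7.89% of all genes, and 1 fell, Ly6a, against 10.0%. Proliferation markers summed to 4.92 FPKM in control and 23.2 in knockdown cells at day 6, but to 184 in control and 16.2 in knockdown cells at day 8. Reserve cell and myoblast markers summed to 139 to 767 FPKM over the 8 columns. The part of these marker differences in the results below was not tested. In bulk RNA, fewer myotubes in a culture and less RNA per myotube cannot be told apart. Of the nerve terminal markers, Chat was at most 0.151 FPKM and Slc18a3 at most 0.015, and of the Schwann cell markers, Sox10 was at most 0.093 FPKM in all columns. Other genes of these lists were higher. Tubb3, of the nerve list, was 61.8 FPKM in control myoblasts, 45.2 in knockdown myoblasts and 17.1 in day 6 knockdown. Of the Schwann cell list, Egr2 was 7.21 FPKM in the day 8 control and S100b 4.34 in day 6 knockdown.

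The promoters of the genes whose levels are described most closely are shown first, as the 250 bases before the RefSeq start in GRCm38.p6, each written 5′ to 3′ on the strand of its gene. They are Chrng at chr1:87205561-87205810 on the plus strand, Chrna1 at chr2:73580339-73580588, Chrne at chr11:70619195-70619444 and Agrn at chr4:156197489-156197738 on the minus strand, and Musk at chr4:58285712-58285961 on the plus strand. Capitals mark every E-box, CANNTG, the site that myogenic factors such as myogenin bind, and every N-box, CCGGAA, which synaptic genes are known to use, searched on both strands.
Chrng: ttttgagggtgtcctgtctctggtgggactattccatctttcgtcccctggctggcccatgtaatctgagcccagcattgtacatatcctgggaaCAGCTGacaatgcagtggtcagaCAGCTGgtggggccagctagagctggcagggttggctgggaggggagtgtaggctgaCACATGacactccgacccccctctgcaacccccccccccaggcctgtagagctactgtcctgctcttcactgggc
Chrna1: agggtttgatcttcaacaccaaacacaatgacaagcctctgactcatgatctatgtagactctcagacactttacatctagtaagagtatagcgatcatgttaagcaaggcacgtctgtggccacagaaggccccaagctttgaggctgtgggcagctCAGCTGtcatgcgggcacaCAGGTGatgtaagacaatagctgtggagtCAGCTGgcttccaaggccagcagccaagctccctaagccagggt
Musk: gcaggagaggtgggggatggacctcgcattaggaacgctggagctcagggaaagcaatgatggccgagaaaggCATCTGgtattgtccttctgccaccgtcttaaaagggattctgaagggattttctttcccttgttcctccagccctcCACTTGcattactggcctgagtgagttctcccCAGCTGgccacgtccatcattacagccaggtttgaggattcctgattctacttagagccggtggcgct
Chrne: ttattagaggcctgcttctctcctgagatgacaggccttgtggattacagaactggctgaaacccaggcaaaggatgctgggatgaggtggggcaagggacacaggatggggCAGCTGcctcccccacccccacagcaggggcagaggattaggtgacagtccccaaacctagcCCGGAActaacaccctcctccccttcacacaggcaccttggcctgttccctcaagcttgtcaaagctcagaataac
Agrn: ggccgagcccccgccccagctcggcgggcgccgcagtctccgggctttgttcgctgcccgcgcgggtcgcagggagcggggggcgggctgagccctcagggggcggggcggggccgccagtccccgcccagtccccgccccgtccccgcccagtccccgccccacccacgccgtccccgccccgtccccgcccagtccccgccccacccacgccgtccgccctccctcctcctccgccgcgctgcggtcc
Chrng, Chrna1 and Musk each held 3 E-boxes, as did Chrnb1, Chrne held 1, and Dok7 and Agrn held 0. At least 3 were found in 12.2% of all 32851 mouse promoters of this length, and at least 1 in 66.2%. The form CAGCTG stood 2 times in Chrng and in Chrna1, a number reached by 1.26% of promoters, and 1 time in Chrne and in Musk. Of the 7 members found in the table, the N-box was in Chrne alone, 76 bases before the start, and in 12.0% of all promoters. The promoter of Agrn was 83.6% G and C and that of Dok7 75.2%, against a median of 52.4% over all promoters. Promoters of Chrnd, Rapsn and Lrp4 were not analysed here. A match is a description of these letters, not a bound site.

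In control cells, 8 of the 9 members past the 1 FPKM minimum rose at least 2-fold from day 0 to day 6, where 21.5% of all genes tested did. Against day 0, the USP10 table's control had 7 of 9 past 2-fold, beside 19.2% of all genes, and from day 0 to day 8 it was 9 of 10, against 20.0%. Chrne, counted among the 9, was listed at 0 at day 0 and has no fold. Dok7 in each of these counts and Chrne at day 8 passed the minimum only through the later column, so their calls were set by the filter. Among members with at least 1 FPKM in both columns, 7 of 8 rose to day 6, 6 of 8 with the control of the USP10 table and 7 of 8 to day 8, where 15.9%, 13.2% and 13.5% of all genes under this minimum did. The plot of each gene in the 8 columns shows this rise and what the treatments left of it.

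**Figure D1:**
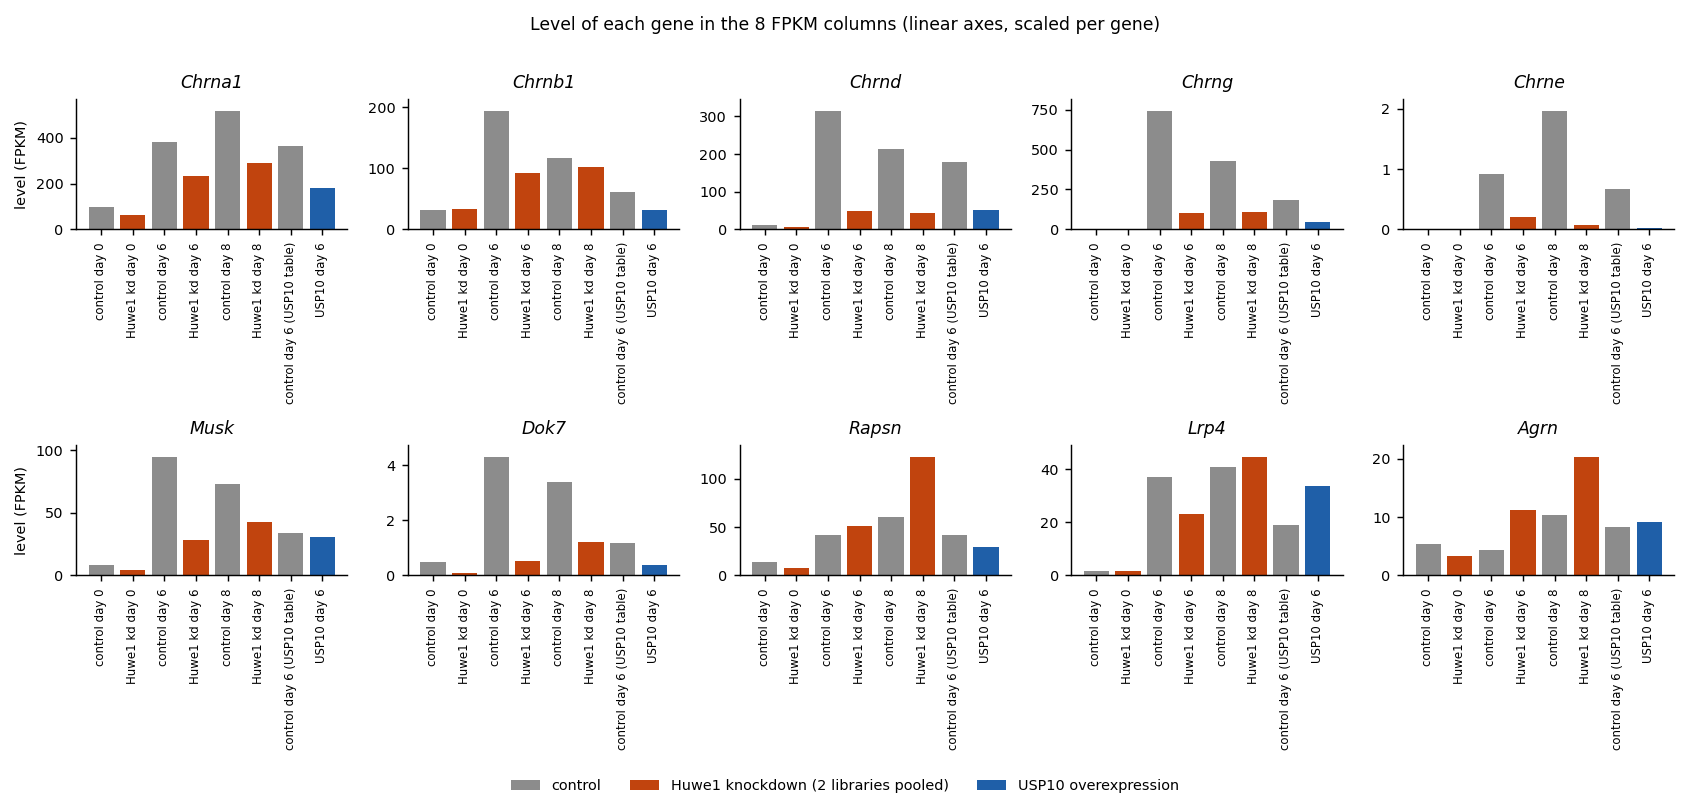
Level in FPKM (vertical axes, linear, scaled per gene) of the 10 genes in the 8 columns (horizontal axes), with control in grey, Huwe1 knockdown in orange and USP10 in blue; each bar is 1 value with no error. Chrng stands at 744 FPKM in control day 6 and 102 in knockdown day 6, while Rapsn and Agrn have their highest bars, 123 and 20.4 FPKM, in knockdown day 8.

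Chrng had the steepest rise, from 1.02 FPKM in control myoblasts, an estimated 62 fragments, to 744 at day 6, a 720.4-fold difference, and 426 at day 8. It was 184 FPKM in the control of the USP10 table. It was the most abundant of the 10 genes in the day 6 control of the Huwe1 table, and the eighth in myoblasts. Chrnd rose 28.7-fold to day 6, Lrp4 19.7-fold, Musk 11.0-fold, Dok7 8.88-fold, Chrnb1 6.01-fold, Chrna1 3.97-fold and Rapsn 2.93-fold. In myoblasts Chrna1 was the highest of the 10, at 95.9 FPKM, followed by Chrnb1 at 32.4 and Rapsn at 14.4. Agrn was the member with no rise to day 6, at 5.33 FPKM in myoblasts, 4.43 and 8.28 in the 2 day 6 controls, and 10.4 at day 8.

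Part of the rise was present in the treated cells. Between the knockdown columns of day 0 and day 6, 8 of 8 members past the minimum were at least 2-fold higher, against 19.1% of all genes. Chrng, at 0.491 FPKM in knockdown myoblasts, passed only through the later column, and with 1 FPKM in both columns it was 7 of 7, against 13.5%. Chrng was 203-fold higher at day 6 than at day 0 within the knockdown, Lrp4 13.5-fold, Musk 7.20-fold and Chrnd 6.80-fold. Compared with control myoblasts, 9 of 9 members were at least 2-fold higher in the day 8 knockdown, against 22.9% of all genes, and 5 of 8 in USP10 cells, against 16.8%. With 1 FPKM in both columns these were 8 of 8, against 16.1%, and 5 of 8, against 12.2%. Chrnb1, the β subunit, was 31.4 FPKM in USP10 cells and 32.4 in control myoblasts, next to each other.

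In myoblasts, 7 of the 8 members past the minimum had the lower value in Huwe1 knockdown, most of them by less than 2-fold. The share of all genes with the lower value is not given here. Of 8 members past the minimum, 2 fell, Chrng and Musk, where 1.69% of all genes fell, and 0 rose, where 1.9% of all genes did. Musk fell from 8.64 to 3.96 FPKM and Chrng from 1.02 to 0.491. Chrng passed the minimum through its control column alone, and with a pseudocount of 1 FPKM in place of 0.01 the count was 0. The median log2 ratio of the 8 was -0.65, beside 0.0 over all genes tested.

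At day 6 of differentiation, 5 of 9 members past the minimum fell in Huwe1 knockdown, Chrnb1, Chrnd, Chrng, Musk and Dok7, against 13.4% of all genes, and 1 rose, Agrn, against 17.6%. Their median log2 ratio was -1.06, beside -0.01 over all genes. At day 8, 4 of 10 fell, Chrnd, Chrng, Chrne and Dok7, against 10.0% of all genes, and 1 rose, Rapsn, against 7.89%. The median was -0.81, beside 0.0. In USP10 cells, 4 of 9 fell, Chrna1, Chrnd, Chrng and Dok7, against 10.0% of all genes, and 0 rose, against 9.7%, with a median of -0.95 beside 0.05. Chrnd and Chrng were thus the members that fell in all 3 comparisons of differentiated cells, along with Dok7, which was below 1 FPKM in the treated columns of day 6. Counted over the members with at least 1 FPKM in both columns, those that fell were 1 of 7 at day 0, 4 of 8 at day 6, 3 of 9 at day 8 and 3 of 8 with USP10. Of all genes under this minimum, 1.01%, 10.7%, 7.3% and 6.43% fell in the same order.

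**Figure D2:**
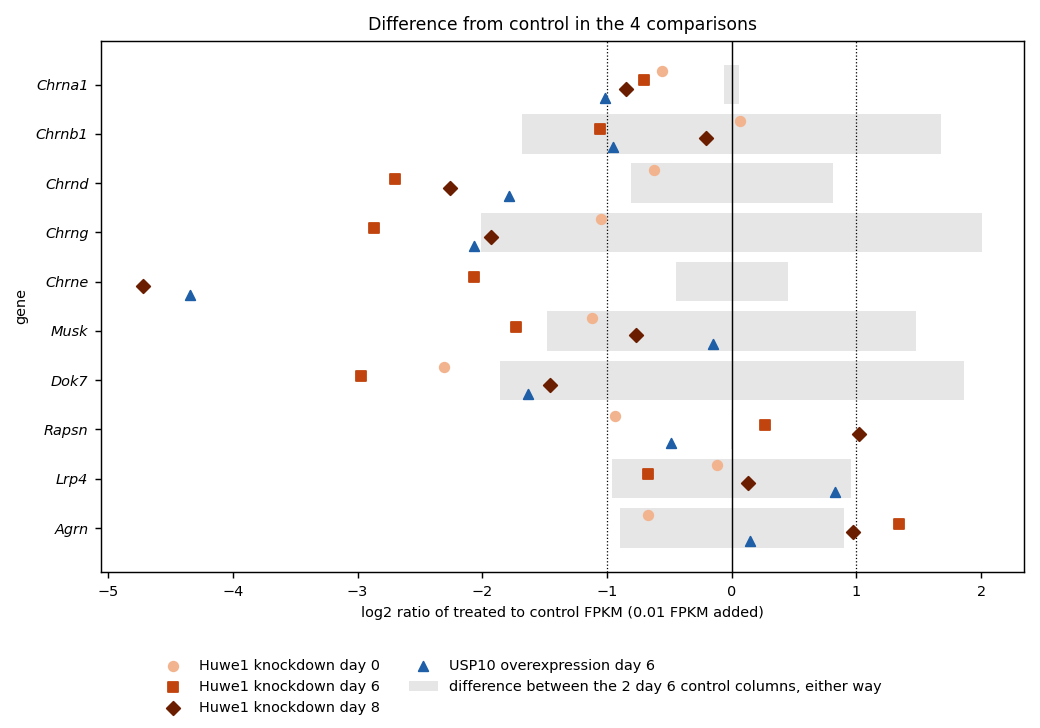
Log2 ratio of treated to control FPKM (horizontal axis, 0.01 FPKM added) for the 10 genes (vertical axis) in the 4 comparisons, with dotted lines at 2-fold; grey bars span the difference of the same gene between the 2 day 6 controls, drawn to both sides. Chrnd lies outside its bar in the 3 comparisons of differentiated cells, at -2.70, -2.26 and -1.79, while Chrnb1 at -1.06 and -0.95 lies inside a bar of 1.68. Chrne has no point at day 0, where it is listed at 0, and Dok7 at day 0 and Chrne in both day 6 comparisons were under the 1 FPKM minimum.

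The 2 day 6 controls differed in these genes too. The control of the Huwe1 table was at least 2-fold above that of the USP10 table in 4 of 9 members, Chrnb1, Chrng, Musk and Dok7, against 8.66% of all genes. Of the 6 members past 2-fold in day 6 knockdown, 5 differed by more than the 2 controls did, the exception being Chrnb1. Of the 4 in USP10 cells, 3 did, the exception being Dok7. Set against the control of the USP10 table and centred on the median gene, 2 members fell in day 6 knockdown rather than 5. Then the log2 ratio was -0.91 for Chrng, -0.31 for Musk and 0.39 for Agrn, and that of Chrnb1 turned to 0.56. In the same way, USP10 cells set against the control of the Huwe1 table had 6 members that fell and 1 that rose, Agrn at 1.06, in place of 4 and 0. The share of all genes past 2-fold in these swapped comparisons is not given here, so these counts have no background beside them. Summed myotube markers were 22229 FPKM in the Huwe1 table's control and 9576 in the other, and summed mesenchymal markers 125 and 511.

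Chrna1 (chr2:73563281-73580338), the subunit that forms the main face of the acetylcholine binding site, had the lower value in treated cells in each comparison. In control and treated columns it was 95.9 and 65.1 FPKM at day 0, 380.4 and 234 at day 6, 519.7 and 289 at day 8, and 366 and 181 with USP10. The log2 ratios were -0.56, -0.70, -0.85 and -1.02, of which only the last reached 2-fold. The 2 day 6 controls lay 0.06 apart on the log2 scale, the closest agreement after that of Rapsn.

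Chrnb1 (chr11:69784036-69795937), the β subunit, was 32.4 FPKM in control and 34.0 in knockdown cells at day 0, 195 and 93.1 at day 6, 118 and 101 at day 8, and 60.6 and 31.4 with USP10. It fell by 1.06 on the log2 scale at day 6, and its ratios at day 8 and with USP10 were -0.21 and -0.95. The 2 day 6 controls differed 3.21-fold in this gene, more than either treatment did.

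Chrnd (chr1:87190597-87200070) and Chrng (chr1:87205811-87211835), the δ and γ subunits, are neighbours on the same chromosome with 5740 bases between them. Chrnd was 11.0 FPKM in control and 7.14 in knockdown cells at day 0, 315 and 48.6 at day 6, 213 and 44.4 at day 8, and 180.1 and 52.1 with USP10. The 3 differentiated treated values, 44.4 to 52.1 FPKM, lay close together and below all 3 differentiated controls. Chrng was 1.02 and 0.491 FPKM at day 0, 744 and 102 at day 6, 426 and 112 at day 8, and 184 and 44.0 with USP10. Here too the highest treated value, 112 FPKM, was under the lowest differentiated control, 184. The log2 ratios were -2.70, -2.26 and -1.79 for Chrnd and -2.87, -1.93 and -2.07 for Chrng, while the 2 day 6 controls differed by 0.81 in Chrnd and 2.01 in Chrng.

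Chrne (chr11:70614883-70619194), the adult ε subunit, was the lowest of the 10 genes in every column. It was listed at 0 in control and knockdown myoblasts, at 0.922 and 0.211 FPKM at day 6, 1.97 and 0.0654 at day 8, and 0.674 and 0.0237 with USP10. Only the day 8 pair passed the 1 FPKM minimum, through its control column, with a log2 ratio of -4.72. These values stand for few fragments, an estimated 45 in the day 6 control, 58 in the day 8 control, 8 in the control of the USP10 table and 1 in USP10 cells. The ratio of USP10 cells to control was 0.0352, with an exact 95% interval of 0.000794 to 0.263 that covers counting error alone. An uncharacterised gene, 4930544D05Rik, overlaps Chrne by 1043 bases on the opposite strand and was at most 0.113 FPKM in all columns. The libraries were directional, but whether strand was used in counting was not stated.

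Differentiated C2C12 cells held far more γ than ε subunit mRNA, with or without treatment. Chrng exceeded Chrne 807-fold and 273-fold in the 2 day 6 controls and 216-fold in the day 8 control. The ratio was 481-fold in day 6 knockdown, 1709-fold in day 8 knockdown and 1855-fold in USP10 cells, the last resting on about 1 fragment of Chrne. With 0.01 FPKM added, the log2 ratio was 9.64 in control and 8.84 in knockdown at day 6, 7.75 and 10.53 at day 8, and 8.07 and 10.35 with USP10. It was lower in treated cells at day 6 and higher in the other comparisons, and the SD over the 2 day 6 controls was 1.11 (n = 2). With 1 FPKM added, the order turned at day 8, to 7.17 in control and 6.73 in knockdown, and with USP10, to 6.79 and 5.46.

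Chrng and Chrnd differed more than Chrna1, so the make-up of the receptor mRNA differed as well. Chrng made up 0.729% of the summed FPKM of the 5 subunits in control myoblasts, 45.5% in the day 6 control, 33.4% in the day 8 control and 23.3% in the control of the USP10 table. In treated cells it was 21.3%, 20.4% and 14.3% in the same order. Chrna1 made up 68.4% in control myoblasts, 23.3%, 40.7% and 46.2% in the differentiated controls, and 49.0%, 52.9% and 58.6% in the treated cells. The order of the treated and control shares was the same in all 3 pairs, but the share of Chrng in day 6 knockdown, 21.3%, was close to the 23.3% of the USP10 table's control.

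**Figure D3:**
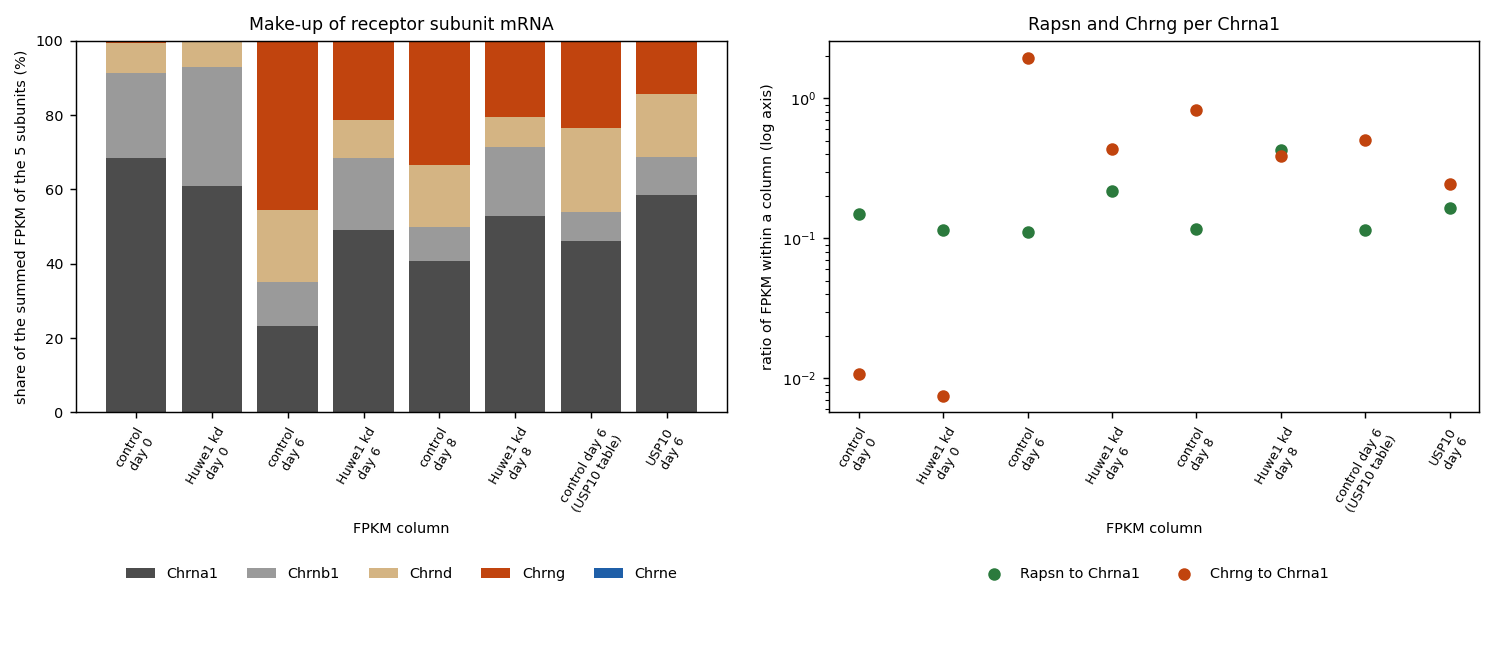
Left, share of the summed FPKM of the 5 receptor subunits (vertical axis, percent) in the 8 columns (horizontal axis); Chrne is at most 0.154% and too thin to see. Right, ratio of Rapsn or Chrng to Chrna1 FPKM within a column (log axis); Rapsn to Chrna1 stays at 0.111 to 0.15 in all 4 controls and reaches 0.425 in day 8 knockdown.

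Agrn (chr4:156165290-156197488), the ligand, which nerve and muscle both make, was higher in Huwe1 knockdown than in control at day 6 and day 8 and lower at day 0. It was 5.33 FPKM in control and 3.35 in knockdown cells at day 0, 4.43 and 11.2 at day 6, 10.4 and 20.4 at day 8, and 8.28 and 9.18 with USP10. It rose by 1.34 on the log2 scale in day 6 knockdown, and its ratio at day 8, 0.97, was just under 2-fold. The FPKM does not separate the nerve form of agrin from the muscle form.

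Lrp4 (chr2:91457531-91513901), the receptor for agrin, did not reach 2-fold in any comparison with control. Control and treated columns were 1.86 and 1.71 FPKM at day 0, 36.9 and 23.3 at day 6, 40.9 and 44.8 at day 8, and 18.9 and 33.7 with USP10. Its log2 ratios of -0.67 at day 6 and 0.83 with USP10 were both smaller than the 0.96 between the 2 day 6 controls.

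Musk (chr4:58285962-58374303), the receptor kinase, was 8.64 FPKM in control and 3.96 in knockdown cells at day 0, 94.9 and 28.5 at day 6, 72.8 and 42.8 at day 8, and 34.1 and 30.6 with USP10. It fell by 1.12 at day 0 and by 1.73 at day 6 on the log2 scale, and its ratios at day 8 and with USP10 were -0.77 and -0.15. The treated values of differentiated cells, 28.5 to 42.8 FPKM, overlapped the 34.1 FPKM of the USP10 table's control. Dok7 (chr5:35057084-35087831), the adaptor of MuSK, was a low gene throughout, at 0.477 and 0.0882 FPKM at day 0, 4.31 and 0.541 at day 6, 3.40 and 1.23 at day 8, and 1.18 and 0.375 with USP10. It fell by 2.97, 1.46 and 1.63 on the log2 scale in differentiated cells, where it passed the minimum at day 6 through the control columns alone. An estimated 26 and 29 fragments stood behind its control and USP10 values in the USP10 table.

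Rapsn (chr2:91035627-91045729), the scaffold, was 14.4 FPKM in control and 7.46 in knockdown cells at day 0, 42.2 and 50.7 at day 6, 60.7 and 123 at day 8, and 41.9 and 29.8 with USP10. It rose by 1.02 on the log2 scale in day 8 knockdown, where it was second to Chrna1 among the 10 genes. Its day 6 controls differed by 0.01. A gene not listed in the tables, Gm13778, overlaps Rapsn by 1638 bases on the opposite strand in GENCODE M21, and reads of the pair cannot be told apart if strand was not used.

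Other genes of the synapse were read as lists, each by its counts beside the share of all genes in the same comparison. Counts of these lists at 1 FPKM in both columns are not given here. Of all genes, 1.69% fell and 1.9% rose at day 0, 13.4% and 17.6% at day 6, and 10.0% and 7.89% at day 8. With USP10, 10.0% fell and 9.7% rose. The list of agrin and MuSK signalling, 19 genes all past the minimum, had medians of 0.0, 0.41, -0.03 and 0.06. These are in the order day 0, day 6, day 8 and USP10. At day 6, 4 of the 19 rose, near the 17.6% of all genes, and 1 fell, against 13.4%. Of these 5 calls, 3, those of Rhoa, Fyn and Dnaja3, were also made against the control of the USP10 table, centred on the median gene. Rhoa, a small GTPase of the actin cytoskeleton, rose from 162 to 428 FPKM, and Dnaja3, a co-chaperone that binds MuSK, fell from 60.1 to 27.5. Fyn, a Src-family kinase, rose from 46.9 to 146 FPKM at day 6 and from 69.0 to 221 with USP10, and fell from 49.8 to 11.6 at day 8.

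**Figure D4:**
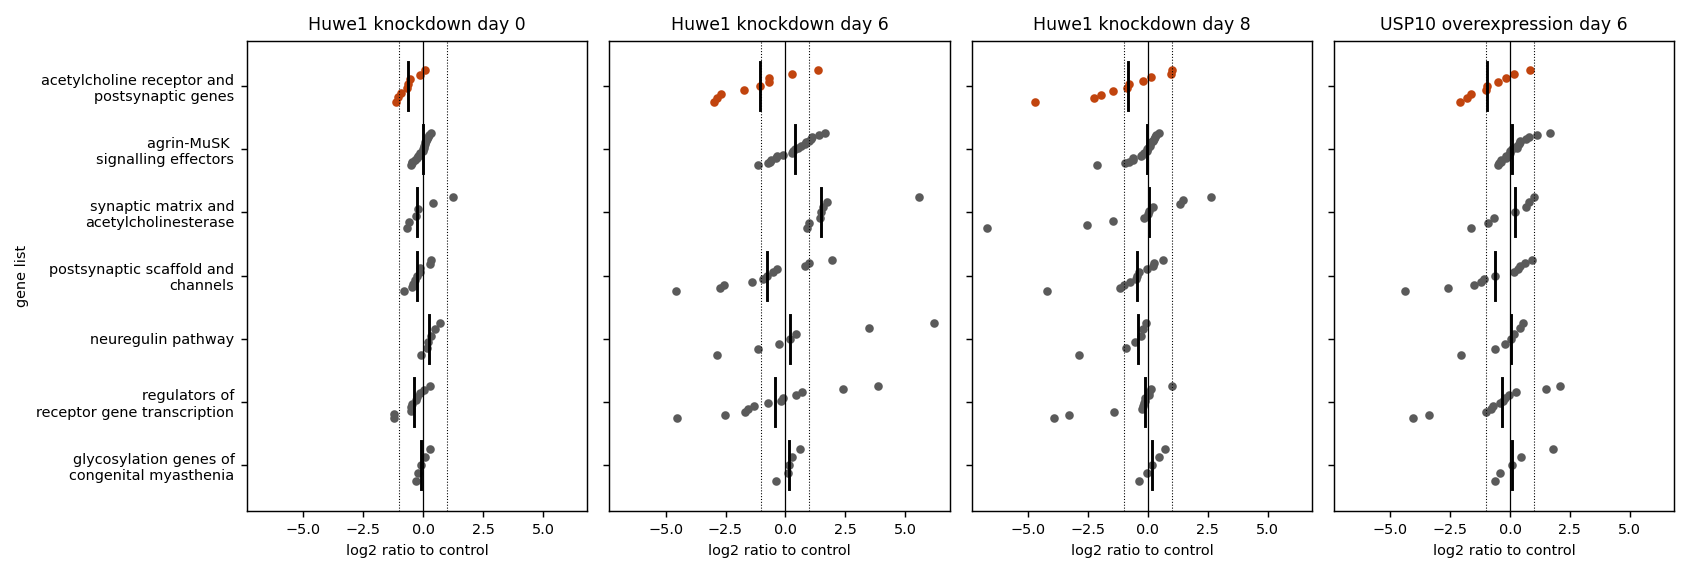
Log2 ratio of treated to control FPKM (horizontal axes) for the genes past the 1 FPKM minimum in each list (vertical axis), with the 10 described genes in orange, black bars at list medians and dotted lines at 2-fold. At day 6 of Huwe1 knockdown the 10 genes have a median of -1.06 and the synaptic matrix list one of 1.48.

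Of the synaptic matrix list, 5 of 7 genes past the minimum rose in day 6 knockdown, against 17.6% of all genes, and 0 fell, against 13.4%. Those that rose were laminins, the nidogen Nid2 or proteoglycans. Ache, Colq and Col13a1 were under the minimum, and each had the lower value in knockdown. Lama4, the laminin α chain of synaptic basal lamina, was 0.109 FPKM in control and 5.65 in knockdown, and Nid2 16.5 and 55.2. Here Lama4 passed the minimum through the knockdown column alone. In the control of the USP10 table Lama4 was 4.86 and Nid2 59.5 FPKM, and against it 1 of the 5 rises was left, Lama2, with Nid2 at -0.16 and Bgn at -2.03 on the log2 scale. The summed mesenchymal markers rose in the same columns, from 125 to 4518 FPKM, and their part in this was not tested. At day 8, 3 of 10 rose, Nid2 again with 30.6 and 83.7 FPKM, and 3 fell. Ache, the esterase that ends transmission, fell from 1.69 to 0.283 FPKM there, and Col13a1, a collagen of the junction, from 1.99 to 0.00926. With USP10, 0 of 7 rose and 1 fell, Bgn, the proteoglycan biglycan, from 2089 to 667 FPKM, while it was 194 FPKM in the control of the Huwe1 table. At day 0, Nid2 alone of 6 rose, from 5.88 to 14.1 FPKM, and 0 fell.

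Of the scaffolds and channels of the postsynaptic membrane, more genes fell than rose in the 3 comparisons of differentiated cells. At day 0, 0 of 9 reached 2-fold. At day 6, 4 of 11 fell, against 13.4% of all genes, and 1 rose, against 17.6%. At day 8, 2 of 11 fell, against 10.0%, and 0 rose, against 7.89%. With USP10, 5 of 11 fell, against 10.0%, and 0 rose, against 9.7%. Scn4a, the muscle sodium channel that carries the action potential, fell in all 3, from 13.4 to 0.564 FPKM at day 6, 8.58 to 0.450 at day 8 and 5.78 to 0.267 with USP10. It was under 1 FPKM in each treated column, so these calls passed the minimum through the controls alone. Sntb1, a syntrophin, fell from 86.5 to 13.2 FPKM and Syne2, a nuclear envelope protein, rose from 0.651 to 2.54 at day 6. Syne2 passed through the knockdown column alone. Against the control of the USP10 table, 2 of the 5 day 6 calls were left, Scn4a and Kcnn3. Dtna, dystrobrevin, fell from 39.3 to 17.6 FPKM at day 8, and Kcnn3, a calcium-activated potassium channel, from 24.7 to 4.10 with USP10.

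Of the neuregulin pathway, a second nerve signal to synaptic genes, Erbb3, a neuregulin receptor, fell in each comparison of differentiated cells. It was 27.5 FPKM in control and 3.79 in knockdown at day 6, 28.2 and 3.89 at day 8, and 10.1 and 2.43 with USP10. Erbb2, its partner receptor, also fell at day 6, from 17.7 to 7.96 FPKM. Nrg1, a ligand, rose from 0.417 to 4.75 FPKM there and the ETS factor Etv4 from 0.0143 to 1.79. Both passed the minimum through the knockdown column alone. The control of the USP10 table had Nrg1 at 5.85, Etv4 at 1.04 and Erbb2 at 10.2 FPKM, so that of the 4 calls only that of Erbb3 was left against it. Thus 2 of 7 fell at day 6, against 13.4% of all genes, and 2 rose, against 17.6%. At day 8, 1 of 6 fell, and with USP10 1 of 7, against 10.0% in each, and 0 of 6 moved at day 0.

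Among regulators of receptor gene transcription, 5 of 12 fell at day 6, against 13.4% of all genes, and 2 rose, against 17.6%. At day 8, 3 of 12 fell, against 10.0%, and 1 rose, against 7.89%. With USP10, 2 of 12 fell, against 10.0%, and 2 rose, against 9.7%. Against the control of the USP10 table, 5 of the 7 day 6 calls were left, among them those of Myog, Myf6, Myf5 and Hdac9. Myog, which encodes myogenin, fell from 619 to 27.1 FPKM at day 6, from 392 to 148 at day 8 and from 305 to 28.8 with USP10. Myf6, another myogenic factor, fell from 2.51 to 0.433 FPKM at day 6, from 1.41 to 0.135 at day 8 and from 4.93 to 0.283 with USP10. Each time Myf6 passed the minimum through the control column alone. Myf5, the early myogenic factor, rose from 3.51 to 18.5 FPKM at day 6 and from 4.79 to 20.2 with USP10. Hdac9, a repressor of receptor genes, was 2.07 FPKM in control and 0.883 in knockdown at day 0, 0.204 and 3.13 at day 6, 1.07 and 0.0614 at day 8, and 0.360 and 1.04 with USP10. It fell, rose, fell and rose in that order. In each comparison it passed the minimum through its higher column alone, so these calls were set by the filter. At day 0, Myod1, the master myogenic factor, was the other of 2 of 10 that fell, from 21.7 to 9.30 FPKM, and 0 rose. Id1, an inhibitor of myogenic factors, rose from 26.2 to 52.5 FPKM at day 8.

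None of the 11 other nicotinic receptor subunits, which are mostly neuronal, passed 1 FPKM in any of the 8 columns, and the highest value was 0.490 FPKM, in Chrnb2. The 5 glycosylation genes whose loss causes congenital myasthenia gave 0 calls in the 3 Huwe1 comparisons. With USP10, 1 of them rose, Gmppb, which makes GDP-mannose, from 5.61 to 19.3 FPKM.

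Genes with the pattern most like these were sought over the 8 columns among the 10228 genes that reached 5 FPKM in any column, by Pearson's r of log2(FPKM + 0.1). The columns share libraries of few cultures, so r is a description and has no p. The mean of Chrna1, Chrnb1, Chrnd and Chrng was most like Gm15816, annotated as an antisense RNA, with r = 0.998, Atp2a1, the calcium pump of fast muscle, with 0.996, Abcd3, a peroxisomal transporter, with 0.995, Akap6, an anchor of protein kinase A, with 0.995 and Jhdm1d, a histone demethylase, with 0.994. Atp2a1 was 530.2 FPKM in the day 6 control and 49.9 in day 6 knockdown, 318 and 37.1 at day 8, and 86.1 and 11.9 with USP10. Abcd3 had a near-equal r over a small range, from 16.3 to 32.9 FPKM. Chrne was most like Npnt, which encodes the matrix protein nephronectin, with r = 0.984, Slc44a4 with 0.979, Ccdc127 with 0.974, Eftud1 with 0.964 and Rhbdl2 with 0.963. Npnt was 114 FPKM in control and 27.9 in knockdown at day 6, 120 and 16.5 at day 8, and 67.2 and 14.6 with USP10.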

How the data were processed

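Poly(A) RNA of 10 C2C12 samples was made into directional libraries with the ScriptSeq v2 kit and sequenced on an Illumina HiSeq. The submitters' processing notes name Bowtie2, Cuffdiff and mm10, and the study's methods name Tophat and Cuffdiff; versions, gene annotation and the strand setting are not given in the sources used here. The authors deposited 4 tables with 2 FPKM columns each, and the 2 knockdown libraries of a day were pooled into 1 column. The tables also hold the authors' own fold changes, test scores, p-values and q-values, which were not used. Table starts were raised by 1 to count from 1.

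From these FPKM, log2 ratios were computed with a pseudocount of 0.01, for genes that reached 1 FPKM in either column, and counted at 2-fold. With 1 value per condition, no error or p-value could be had, and ratios of low genes depend on the pseudocount. Alternatives were pseudocounts of 0.1 and 1, minimums of 5 FPKM, of 1 FPKM in both columns and none, centring on the median gene, a 4-fold limit, and the other day 6 control. The 10 genes are given in every comparison. From 13 further lists, at most 2 genes per direction were named, those that changed most past 2-fold, together with genes of lists of 5 or fewer, and 5 genes by likeness. The members and lists were chosen with earlier results of these data known. Some lists share genes: Cd34 stands in the reserve cell and mesenchymal lists, Myf5 in the reserve cell and regulator lists, and Atp2a1, a myotube marker, was also named by likeness.

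Depth was estimated from genes with 1 transcript of at least 1500 bases in GENCODE M21, as the depth at which their most common lowest value, FPKM times length, is 1 fragment, and fragments from that depth and the longest transcript. Promoters came from RefSeq (GRCm38.p6), in which 7 of 10 members were found, and 21883 of the 23388 genes were found in GENCODE M21. Python 3.11.15, numpy 2.4.6, pandas 2.3.3, scipy 1.17.1 and matplotlib 3.10.9 were used, and the scripts were tested on simulated data.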

Additional observations from a re-analysis of the deposited data

Results flagged for a closer look

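Rapsn and Agrn had log2 ratios of opposite sign on different days of Huwe1 knockdown, each past 1.5-fold. For Rapsn they were -0.94 at day 0 and 1.02 at day 8, and for Agrn -0.67 at day 0, 1.34 at day 6 and 0.97 at day 8. Among the other genes of the synapse, Fyn was 1.64 at day 6 and -2.10 at day 8, and Id1 -1.68 at day 6 and 1.00 at day 8. Hdac9 was -1.22 at day 0, 3.87 at day 6 and -3.92 at day 8. It was a low gene that passed the 1 FPKM minimum through its higher column alone on each of these days. The day 8 knockdown used, by the labels, another pair of shRNAs and another kind of control than days 0 and 6, and by the methods a later infection, so day and design cannot be told apart. The differences between days were not tested.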

How the results depend on the processing

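No paired analysis was possible because each table pools the knockdown libraries into 1 column, and for the same reason leaving out single libraries was not run. Of 42 alternatives for counts and for the ratio of Chrng to Chrne, 27 kept the count within 1.5 times or the ratio within the spread of the controls, and of 137 for single members, 121 kept direction and side of the 2-fold limit. Alternatives that asked a change to exceed the difference between the 2 day 6 controls, set day 0 against the control of the USP10 table, took list genes to the other day 6 control, or took the ratio of Chrng to Chrne as treated minus control, were chosen after seeing the data. Members that fell at day 0, 2 as reported, were 1 with a pseudocount of 0.1, with a minimum of 5 FPKM or with 1 FPKM in both columns, and 0 with a pseudocount of 1 or at 4-fold. The count of 5 at day 6 became 3 at 4-fold and 2 against the control of the USP10 table, centred on the median gene, where Chrnb1 reversed from -1.06 to 0.56. The count of 4 at day 8 became 2 with a minimum of 5 FPKM or at 4-fold, and that of 4 with USP10 became 1 at 4-fold and 6 against the control of the Huwe1 table, centred. Shares of all genes are not given for the 4-fold limit, the minimum of 5 FPKM or the swapped controls. Of the list genes past 2-fold, the same swap reversed Pak1 to -0.34, Nid2 to -0.16, Bgn to -2.03 and Nrg1 to -0.35 in day 6 knockdown, and Bgn to 1.79 in USP10 cells. The log2 ratio of Chrng to Chrne in treated cells moved to 6.41 at day 6 with a pseudocount of 1, to 9.40 and 6.73 at day 8 with 0.1 and 1, and to 8.48 and 5.46 with USP10. Treated minus control, it reversed with a pseudocount of 1, to -0.44 at day 8 and -1.33 with USP10. A larger pseudocount raises the low value of Chrne most, by construction. Depth limits Chrne and Dok7 above all, and the control column of the USP10 table, with about 7800000 fragments, was the shallowest of those estimated.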

Other observations

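The following values were chosen after they were seen. The ratio of Rapsn to Chrna1 mRNA, scaffold to receptor, was 0.15 in control myoblasts and 0.111, 0.117 and 0.114 in the day 6 control, the day 8 control and the control of the USP10 table, while both genes rose over these columns. It was 0.115 in knockdown myoblasts, 0.217 in day 6 knockdown, 0.425 in day 8 knockdown and 0.165 in USP10 cells.

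The treated levels of Chrnd, 48.6 FPKM in day 6 knockdown, 44.4 in day 8 knockdown and 52.1 in USP10 cells, came from 3 separately normalized tables and 3 ways of treating the cells. The controls of the same tables were 315, 213 and 180.1 FPKM.

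Pax7, the marker of muscle stem cells, was 7.54 FPKM in control and 0.0438 in Huwe1 knockdown at day 6, and 8.27 and 0.0808 with USP10. Cd34, which mononucleated reserve cells and mesenchymal cells share, went from 1.59 to 145 FPKM and from 27.8 to 93.2 in the same pairs. Pax7 passed the minimum through the control columns alone. Of 6 reserve cell and myoblast markers past the minimum, 1 fell, Pax7, and 2 rose, Cd34 and Myf5, in each pair. Of all genes, 13.4% fell and 17.6% rose in day 6 knockdown, and 10.0% and 9.7% with USP10. The medians of the 6 were -0.04 and 0.36. At day 8 Pax7 and Cd34 went the other way by less than 2-fold. Pax7 was 24.7 FPKM in control and 36.7 in Huwe1 knockdown there, and Cd34 7.22 and 5.45.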
